A study of Mus musculus with 6 samples.

Results

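The tumor necrosis factor (TNF) superfamily and the genes that act next to it were examined in RNA of mouse retinal pigment epithelium and choroid (RPE/choroid). Genes were taken by symbol, namely Tnf, Lta, Ltb, Ltbr, Fas, Fasl, Cd40, Cd40lg, Cd27, Cd70 and every symbol that starts with Tnfsf, Tnfrsf, Tnfaip or Traf followed by a digit. Of 33924 genes listed, 59 met this rule, and 52 of these had a mean normalised count of at least 10, a level that 54.5% of all listed genes reached. The other 7 were below 10 and none was at 0. By role, the 59 genes were 17 ligands, 24 receptors, 7 TRAF proteins, 3 TRAF3-interacting proteins and 8 genes of the Tnfaip symbol. The last are referred to as TNF-induced proteins, although 3 of them (Tnfaip8l1, Tnfaip8l2 and Tnfaip8l3) are named for their likeness to Tnfaip8 and not for induction by TNF.

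Poly(A) RNA of RPE/choroid was sequenced from 3 young and 3 aged C57BL/6J mice. Young mice were 1 to 2 months old according to their labels, whereas the study's methods give an older range for them. Aged mice are labelled 20 to 24 months by title but 22 to 24 months by their age entry. All mice are labelled male, whereas the study's methods describe mice of both sexes, and both eyes of a mouse were pooled in a sample. The labels name no transgene and no treatment. The value used here is the authors' mean normalised count of a gene over the 6 libraries of both ages, so it has no SD and says nothing of a difference between young and aged mice.

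TNF superfamily ligands are trimeric proteins, made on the cell surface and in part released by proteases. They bind receptors that either carry a death domain, through which they can start cell death, or recruit TRAF adaptor proteins, which lead to the transcription factor NF-kB and to stress kinases. NF-kB in turn induces genes such as Tnfaip3, whose product shuts the pathway down again. In the eye the family is known for its part in inflammation of the retina and choroid.

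The tissue labelled RPE/choroid held RNA of several cell types. RPE genes were high, with Rpe65, the visual cycle isomerase, at a mean normalised count of 113930, although Best1 was at 81.8. Pigment genes listed for melanocytes lay between 25408 and 256984, and they do not tell melanocytes from the pigmented RPE. Rod photoreceptor genes, which RPE does not make, lay between 16944 and 139449. Skeletal muscle genes lay between 35123 and 48944. Fibroblast genes lay between 5456 and 84651, and endothelial genes between 717 and 7369. Of 3 red cell genes, 1 was listed, at 37845. Of 5 macrophage genes, 4 were listed, at 1014 to 13165. Mast cell genes lay between 321 and 625, and neutrophil genes between 2.14 and 450. T cell genes lay between 2.40 and 202, with Cd3e the lowest, B cell genes between 22.4 and 172, and NK cell genes between 9.94 and 23.6. The part of these cells in the levels below was not tested, and in whole tissue fewer cells of a type and less RNA per cell cannot be told apart.

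Levels of different genes are given as the mean normalised count divided by the length in kilobases of the longest annotated transcript (per kb), unless a mean normalised count or another length is named. The median of all genes with a mean of at least 10 was 215 per kb. The medians of the roles were 25.4 per kb for 11 ligands, 63.1 for 23 receptors, 103 for 7 TRAF proteins, 127 for 3 TRAF3-interacting proteins and 339 for 8 TNF-induced proteins. Ligands were therefore the lowest role and TNF-induced proteins the highest. Above the median of all genes per kb were 2 ligands, 7 receptors, 2 TRAF proteins, no TRAF3-interacting protein and 5 TNF-induced proteins, 16 of the 52 genes in all. The levels per kb spanned 481-fold from Tnfsf15 to Ltbr, and the 59 genes together held 0.0803% of all normalised counts.

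**Figure D1:**
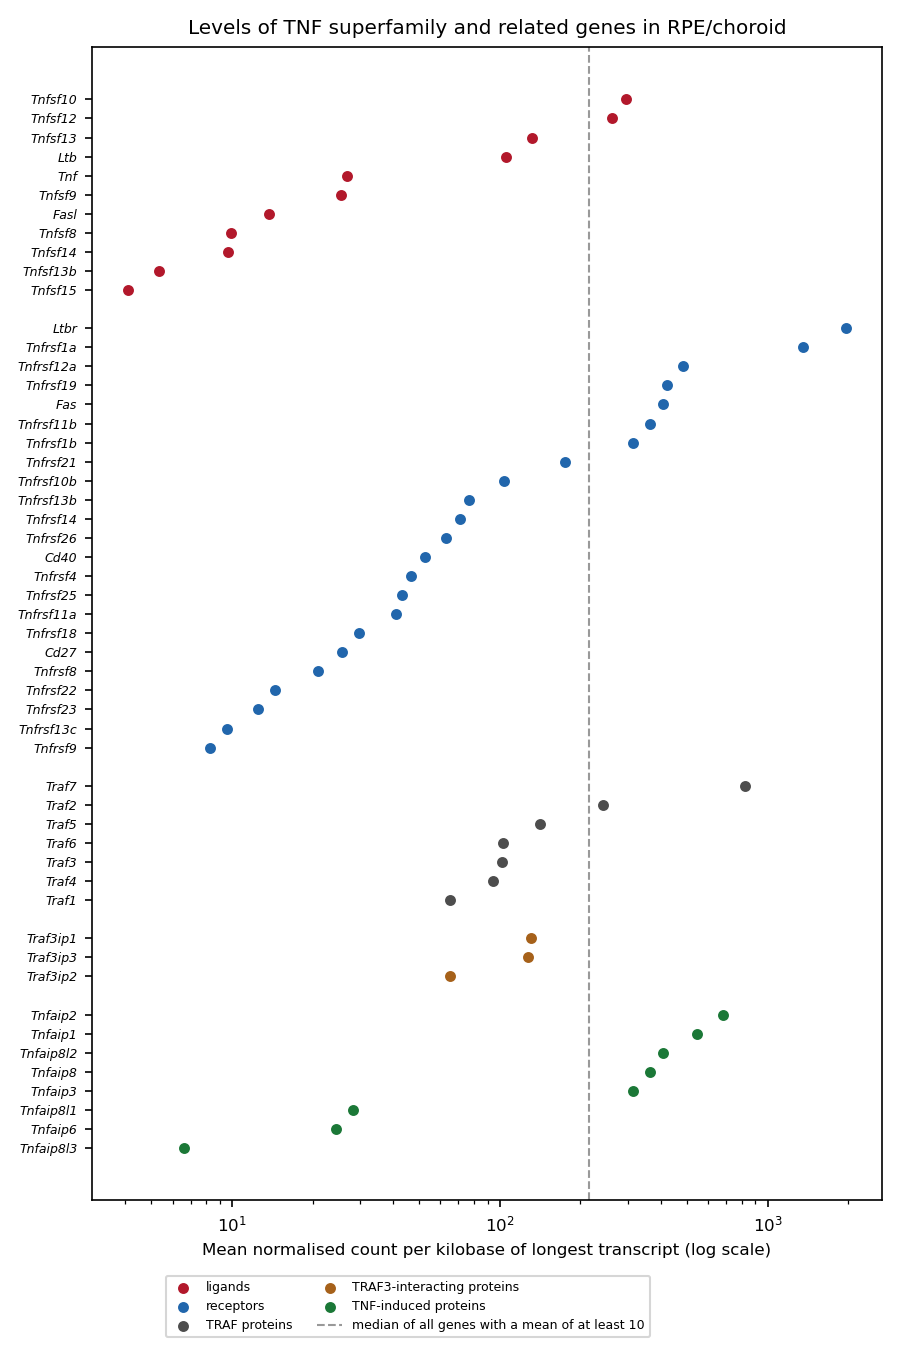
Level of each of the 52 genes with a mean normalised count of at least 10, as the mean normalised count per kilobase of the longest transcript on a log scale, grouped by role and coloured by role. Each point is the authors' mean over 6 libraries, and the dashed line is the median of all genes at 215 per kb. Most ligands lie left of the line, while Ltbr at 1963 and Tnfrsf1a at 1351 per kb lie farthest to the right.

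Among the ligands, 2 stood above the median of all genes per kb. Tnfsf10 (TRAIL), which binds death receptors, had a mean normalised count of 1474, or 295 per kb. Tnfsf12 (TWEAK), a ligand linked to tissue repair, had a mean normalised count of 377, or 262 per kb. They were followed by Tnfsf13 (APRIL), a survival factor of plasma cells, with 132 per kb, and by Ltb, the membrane anchor of the lymphotoxin heterotrimer, with 105 per kb. These 4 ligands were the only ones above 100 per kb. Tnfsf12 and Tnfsf13 share much of their sequence with another annotated gene, as described below, so their levels depend on how reads were divided.

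Tnf itself, the inflammatory cytokine that gave the family its name, had a mean normalised count of 44.0, or 26.8 per kb, which was above 15.7% of genes with a mean of at least 10. Tnfsf9, a costimulatory ligand of T cells, reached 25.4 per kb, and Fasl, the death ligand of cytotoxic lymphocytes, reached 13.7 per kb. The remaining ligands were Tnfsf8 (CD30 ligand) at 9.94 per kb, Tnfsf14 (LIGHT) at 9.65, the B cell survival factor Tnfsf13b (BAFF) at 5.32 and Tnfsf15 at 4.09. Per kb, Tnf and these 6 ligands were each below all 7 TRAF proteins.

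The receptors ranged from 8.24 to 1963 per kb. Ltbr, the lymphotoxin beta receptor, which signals through the noncanonical NF-kB arm, was the highest of all 52 genes, with a mean normalised count of 4137. Per kb it was above 90.3% of genes. Tnfrsf1a, the death domain receptor through which most effects of TNF run, followed at 1351 per kb, above 86.4% of genes. Ltbr and Tnfrsf1a together held 49.2% of the summed normalised counts of the 23 receptors. Tnfrsf12a (Fn14), the receptor of Tnfsf12, stood at 484 per kb, the orphan receptor Tnfrsf19 (TROY) at 421, Fas at 405, the soluble receptor Tnfrsf11b (osteoprotegerin) at 363 and Tnfrsf1b, the TRAF2-binding TNF receptor, at 314. The other 16 receptors were below the median of all genes per kb.

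All 5 receptors with a death domain among the genes that met the symbol rule had a mean of at least 10. Behind Tnfrsf1a and Fas came Tnfrsf21 at 174 per kb, the TRAIL receptor Tnfrsf10b at 104 and Tnfrsf25, the receptor of Tnfsf15, at 43.2. Decoy receptors bind a ligand without passing on its signal. Of these, Tnfrsf22 and Tnfrsf23, which bind TRAIL in the mouse, were at 14.4 and 12.5 per kb, far below Tnfrsf11b. Among the receptors known from lymphocytes, Tnfrsf13b (TACI) was at 77.0 per kb, Tnfrsf14 at 71.3, Cd40 at 52.8, Cd27 at 25.7, Tnfrsf8 at 20.9, Tnfrsf13c (BAFF receptor) at 9.58 and Tnfrsf9 at 8.24. Tnfrsf18, among the 3 lowest receptors by mean normalised count, was at 29.9 per kb.

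**Figure D2:**
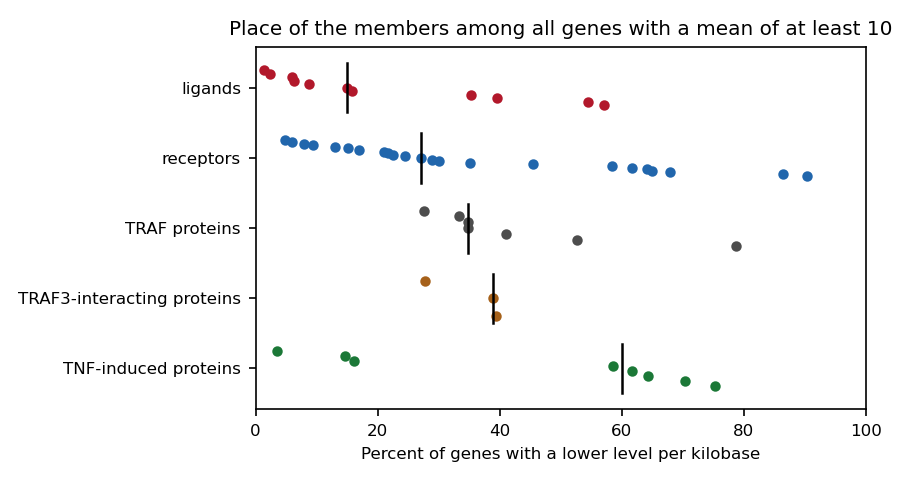
Percent of all genes with a mean normalised count of at least 10 and an annotated length that had a lower level per kilobase, for each of the 52 genes. Each point is a gene, rows are roles, and the black bars are the medians of the roles. Of the ligands, 2 of 11 lie right of the middle, and of the receptors 7 of 23, while 5 of the 8 TNF-induced proteins lie right of the middle.

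The adaptors were more even. The mean normalised counts of the 7 TRAF proteins ran from 223 in Traf1 to 2635 in Traf7. Traf7, which lacks the receptor-binding TRAF domain of the others, was also the highest per kb at 825. Traf2, which bridges receptors to the ubiquitin ligases of the survival complex, was at 243 per kb, and the other 5 lay between 65.0 and 141. Of these, Traf3, which keeps the noncanonical arm off, was at 102 per kb, Traf4 at 94.4, Traf5 at 141 and Traf1, itself an NF-kB target, at 65.0. The TRAF3-interacting proteins were close to each other, with Traf3ip1, a protein of cilia, at 131 per kb, Traf3ip3 at 127 and Traf3ip2 (Act1), an adaptor of interleukin receptors, at 65.4.

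The TNF-induced proteins were spread widely. Tnfaip2 was at 684 per kb, the ubiquitin ligase adaptor Tnfaip1 at 547, Tnfaip8l2, which restrains immune signalling, at 408, Tnfaip8 at 362 and Tnfaip3 (A20), the ubiquitin-editing brake on NF-kB, at 315. These 5 genes were above the median of all genes per kb. Tnfaip8l1 at 28.2 per kb, Tnfaip6, a hyaluronan-binding secreted protein, at 24.5 and Tnfaip8l3 at 6.60 were lower, the highest of them 11.2-fold below Tnfaip3. Whether TNF induced any of these genes in this tissue was not tested.

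Ligands were then set beside their receptors. Of 26 known combinations of a ligand with a receptor, 16 had both genes at a mean of at least 10. The receptor was higher per kb in 11 of these 16, and in 9 it was higher whichever of 3 lengths was used (the longest transcript, the median transcript or the coding sequence). The median ratio of receptor to ligand per kb was 4.74. The size of the ratio depended on the length, so the range over the 3 lengths is given beside the ratio per kb of the longest transcript. Tnfrsf1a was 50.3-fold above Tnf (34.3 to 148) and Tnfrsf1b 11.7-fold (11.7 to 20.2). Ltbr was 18.7-fold above Ltb (18.7 to 71.6) and 204-fold above Tnfsf14 (134 to 953), and Fas was 29.6-fold above Fasl (20.7 to 29.6). The TNF, lymphotoxin and Fas receptors thus exceeded their ligands by more than 10-fold under each length. Tnfrsf14 was 7.39-fold above Tnfsf14 (4.06 to 12.6), Tnfrsf25 was 10.6-fold above Tnfsf15 (3.45 to 15.1), and Tnfrsf13b was 14.5-fold above Tnfsf13b (9.62 to 18.5). Tnfsf12 and Tnfrsf12a were the nearest to equal among those 9, with the receptor 1.84-fold higher per kb (1.43 to 2.27). That range covers the choice of length only and not the sequence that Tnfsf12 shares with another gene.

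TRAIL went the other way in the 3 combinations listed for it. The soluble receptor Tnfrsf11b was not set beside TRAIL. It was above Tnfsf10 per kb of the longest transcript (363 against 295) and below it under the median transcript and coding lengths. Tnfsf10 was 2.84-fold above its death receptor Tnfrsf10b per kb, and 20.4-fold and 23.6-fold above the decoys Tnfrsf22 and Tnfrsf23. Tnfsf9 was 3.09-fold above Tnfrsf9. Over the 3 lengths the ratio of receptor to ligand was 0.171 to 0.353 for Tnfrsf10b, 0.0489 to 0.0600 for Tnfrsf22, 0.0423 to 0.0781 for Tnfrsf23 and 0.324 to 0.683 for Tnfrsf9. In these 4 combinations the ligand was higher under all 3 lengths. In another 3 the side depended on the length, namely Tnfsf13b with Tnfrsf13c, Tnfsf13 with Tnfrsf13b and Tnfsf8 with Tnfrsf8.

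**Figure D3:**
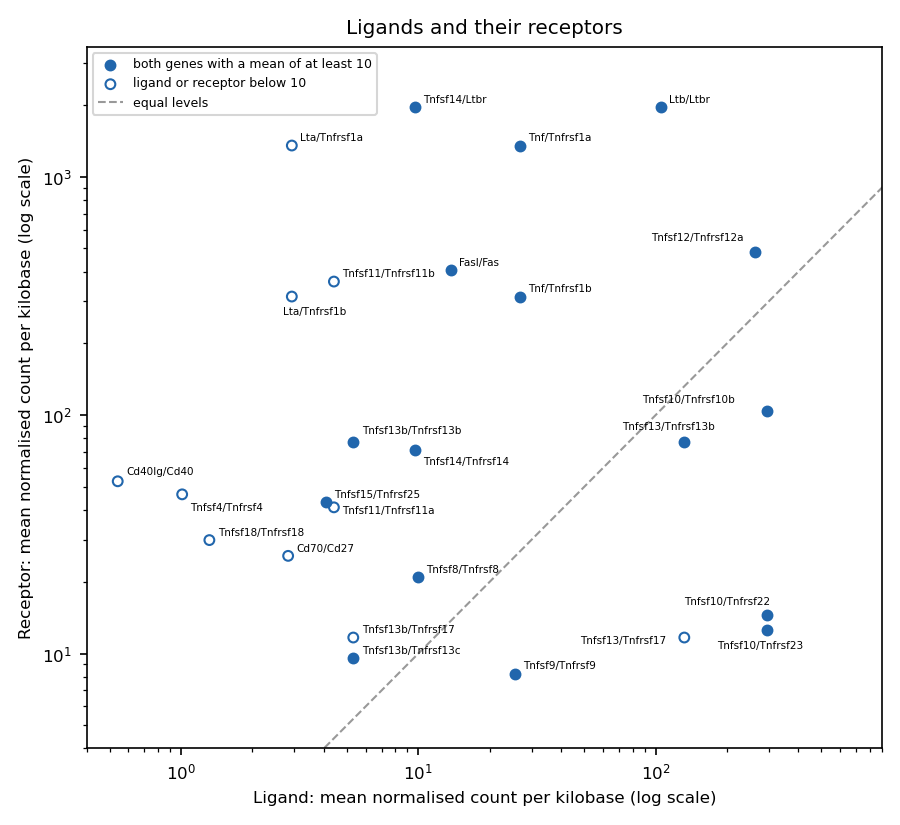
Ligand (horizontal) and receptor (vertical) of 26 combinations, each as the mean normalised count per kilobase on a log scale, with the dashed line where both are equal. Filled points have both genes at a mean normalised count of at least 10 and open points do not. Of the 16 filled points, 11 lie above the line, and the 3 combinations of Tnfsf10 lie below it at the right.

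In the other 10 combinations the ligand or the receptor was below a mean of 10. The genes next to this limit were Tnfsf15 inside it, with a mean normalised count of 13.7, and Tnfsf11 (RANKL, the osteoclast factor) and Tnfrsf17 (BCMA, a receptor of plasma cells) outside it, with 9.86 and 9.51. For means this small, the whole counts of the 6 libraries that add up to the mean could be worked out from the spacing of the deposited values. The libraries could not be matched to mice, so counts are given from the lowest to the highest library. Among genes with a mean between 0 and 3, 68.6% of the counts above 0 were even, so a count of 2 need not stand for separate molecules.

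Cd40lg, the T cell ligand of Cd40, had counts of 0, 0, 0, 0, 2 and 2 in the 6 libraries. Tnfsf4 had 0, 1, 2, 2, 2 and 4, and Cd70, the ligand of Cd27, had 0, 0, 2, 2, 4 and 6. Tnfsf18 had counts of 0, 0, 2, 2, 6 and 6. Cd40lg, Tnfsf4, Cd70 and Tnfsf18 thus had no more than 6 counts in any library. Lta, the lymphotoxin subunit that lymphocytes secrete, had 0, 0, 2, 4, 8 and 10. Like Cd70 and Tnfsf18, it was without a count in 2 of the 6 libraries. Tnfsf11 ranged from 0 to 20 (0, 4, 6, 8, 20 and 20), whereas Tnfrsf17 had counts in all 6 libraries (2, 6, 6, 14, 14 and 15). Per kb, these 6 ligands lay between 0.541 (Cd40lg) and 4.41 (Tnfsf11). Their receptors were higher on that scale, with Cd40 at 52.8 per kb, Tnfrsf4 at 46.5, Cd27 at 25.7, Tnfrsf18 at 29.9, Tnfrsf11a (RANK) at 41.0, Tnfrsf11b at 363 and, for Lta, Tnfrsf1a and Tnfrsf1b at 1351 and 314. This direction was largely set by the limit, as these ligands were grouped for a mean below 10 and these receptors all reached it. The receptor Tnfrsf17, at 11.7 per kb, was below its ligand Tnfsf13 (132) and above its ligand Tnfsf13b (5.32).

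Some of these genes lie near each other in the genome. Under a largest gap of 500 kb, 27 of the 59 genes fell into 11 clusters and 32 lay alone (coordinates of GRCm38). A gap this wide leaves room for other genes between members, and the share of clustered genes outside the family was not computed. On chromosome 6, Cd27 (chr6:125232622-125237010, minus strand), Ltbr (chr6:125306571-125313885, minus strand) and Tnfrsf1a (chr6:125349362-125362484, plus strand) lie within 129.9 kb. Per kb, Ltbr was 76.5-fold above Cd27. The highest receptors of the family were thus in the same cluster as 1 of the lower ones.

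The lymphotoxin and TNF genes lie within 10.9 kb on chromosome 17, in the major histocompatibility complex. Ltb (chr17:35194439-35196320, plus strand) was at 105 per kb, Tnf (chr17:35199381-35202007, minus strand) at 26.8 and Lta (chr17:35203165-35205351, minus strand) at 2.93, a range of 35.9-fold. A second group of ligands on chromosome 17, Tnfsf9, Cd70 and Tnfsf14, spanned 88.9 kb, with levels from 2.83 per kb in Cd70 to 25.4 in Tnfsf9. Tnfsf4, Tnfsf18 and Fasl on chromosome 1 spanned 393 kb and 13.6-fold in level per kb. On chromosome 7, Tnfrsf26 was 5.05-fold above Tnfrsf23 per kb, with Tnfrsf22 between them in position. On chromosome 4, Tnfrsf1b was 15.0-fold above its neighbour Tnfrsf8.

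**Figure D4:**
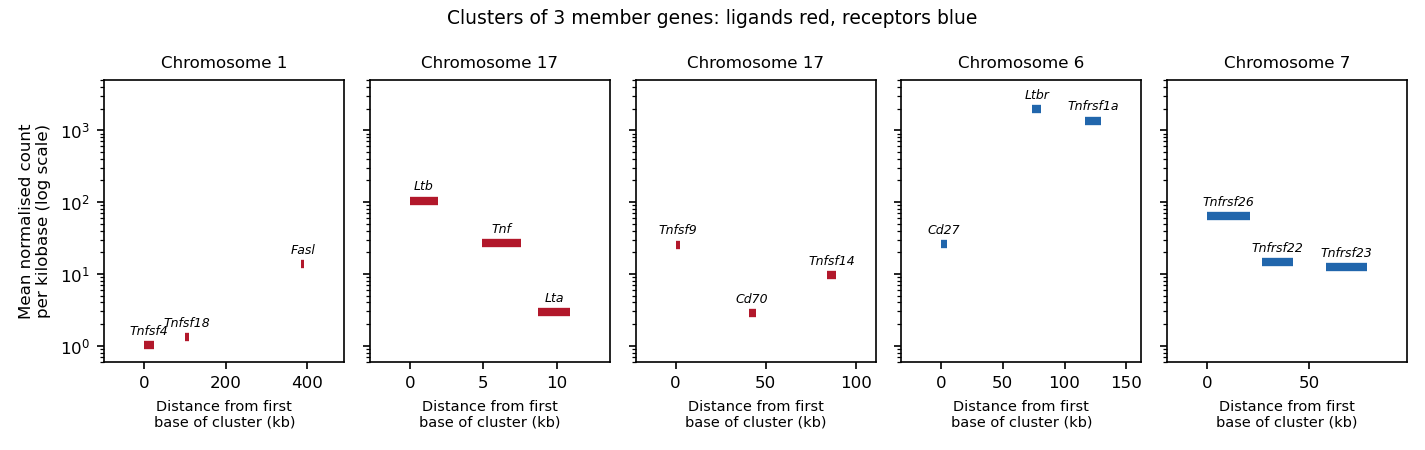
The 5 clusters of 3 genes, with the distance from the first base of the cluster in kilobases (horizontal) and the mean normalised count per kilobase on a log scale (vertical). Each bar is a gene from its start to its end, red for ligands and blue for receptors. Levels differ within each cluster, from 5.05-fold on chromosome 7 to 76.5-fold on chromosome 6.

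Sequence shared with other genes limits some values. Of the 59 genes, 54 had at least 95% of the 50-base words of their transcripts to themselves. Tnfsf12 had 53.2% and Tnfsf13 42.7%, since Tnfsfm13, an annotated readthrough gene that runs through both, holds the rest, and how the counting divided reads among them is not given in the sources used here. Tnfrsf22 had 72.6% of its words to itself and shared 17.3% with its neighbour Tnfrsf23, which was also below 95%. Tnfrsf10b had 94.2%. The levels of these 5 genes are uncertain by an amount that is not known, as a share of words does not measure the error of a level. Traf7 overlaps Caskin1 on the opposite strand and Rab26 on its own strand, with means of 552 and 73.4, and Traf3ip3 overlaps A130010J15Rik on the opposite strand, with a mean of 395.

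Promoter windows were searched for the kB consensus, the 10-base element that NF-kB binds, on both strands. A RefSeq window of GRCm38.p6, from 250 bases before to 50 bases after a transcript start, was found for 47 of the 59 genes. The consensus occurred in 8 of the 47 (17.0%), in 9.55% of all 27025 genes with a window and in 12.6% of those with a mean of at least 10. By role it was in 1 of 12 ligands, 3 of 19 receptors, 1 of 7 TRAF proteins, 0 of 2 TRAF3-interacting proteins and 3 of 7 TNF-induced proteins. Ltb was the only ligand with a match. The 5 stretches of 30 bases shown here are those of Tnfaip3, Tnfaip2, Traf3 and Ltb, chosen after the matches were seen. They run 5′ to 3′ along the gene's own strand, with the bases that matched the consensus, on either strand, in capitals.
Tnfaip3, chr10:19015516-19015545, minus strand, 125 bases before the start: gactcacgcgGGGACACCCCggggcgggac
Tnfaip3, chr10:19015403-19015432, minus strand, 12 bases before the start: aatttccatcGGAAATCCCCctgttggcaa
Tnfaip2, chr12:111442627-111442656, plus strand, 24 bases before the start: gactattttaGGAGGGCCCCtccagggtcg
Traf3, chr12:111166350-111166379, plus strand, 10 bases before the start: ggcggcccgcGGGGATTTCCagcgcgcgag
Ltb, chr17:35194410-35194439, plus strand, 87 bases before the start: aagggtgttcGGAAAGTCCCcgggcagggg

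The matches of Tnfaip3 and Tnfaip2 lie inside the span that GENCODE gives these genes, as the RefSeq start of the window is downstream of the GENCODE start. The other genes with a match were Tnfaip8l1, Tnfrsf25, Tnfrsf8 and Tnfrsf9, and in Tnfrsf8 and Tnfrsf9 the matches overlapped each other. A match is a run of letters and not a measured binding site. The median level was 72.4 per kb in the 8 genes with a match and 71.3 in the 39 genes without. The first set ran from 8.24 to 684 per kb, within the range of the second, which was 1.32 to 1963.

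CpG content of the same windows differed by role. An observed over expected CpG ratio of at least 0.6 was found in 0 of 12 ligands, 5 of 19 receptors, 5 of 7 TRAF proteins, 1 of 2 TRAF3-interacting proteins and 5 of 7 TNF-induced proteins, together 34.0% of the 47 genes. In all genes with a window the share was 38.4%, and in those with a mean of at least 10 it was 67.4%. The 16 genes at or above 0.6 had a median level of 209 per kb and the 31 genes below it 26.8. All other genes with a window and a row in the table had medians of 264 and 3.53 per kb on the 2 sides of this limit, so the direction is not particular to the TNF family. Tnfrsf1a and Tnfsf10 were among the exceptions, with ratios of 0.495 and 0.294 at levels of 1351 and 295 per kb.

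**Figure D5:**
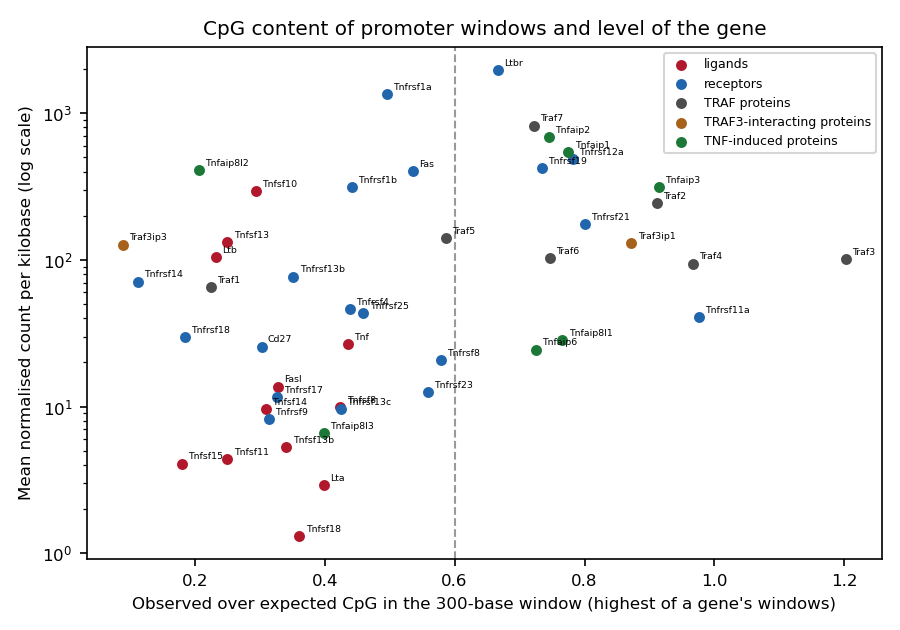
Observed over expected CpG in the 300-base promoter window (horizontal) and mean normalised count per kilobase on a log scale (vertical) for the 47 genes with a window, coloured by role, with the dashed line at 0.6. All 12 ligands lie left of the line, and the 16 genes at or right of it lie between 24.5 and 1963 per kb.

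Other genes of the pathway were taken from 3 lists of signalling proteins inside the cell, with Adam17 and 6 further family genes beside them. All 33 signalling genes, Adam17 and the 6 family genes had a mean of at least 10, which 54.5% of all listed genes reached. In the death and survival list the median of 10 genes was 296 per kb, with Cflar, the inhibitor of caspase activation at death receptors, the highest at 1018 and the necroptosis kinase Ripk3 the lowest at 78.1. In the NF-kB list the median of 16 genes was 345 per kb. Nfkbia, the inhibitor that holds NF-kB in the cytoplasm, was the highest there at 1311 per kb, and Rel, the NF-kB subunit known from lymphocytes, the lowest at 2.12.

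In the ubiquitin editing list the median of 7 genes was 422 per kb, from 8.21 in Tnip3 to 1249 in Rbck1, a subunit of the linear ubiquitin ligase. Adam17, the protease that releases TNF and its receptors from the cell surface, was at 631 per kb, 23.5-fold above Tnf. The 6 family genes whose symbols fall outside the rule had a median of 41.4 per kb, from 4.19 in Edaradd to 91.2 in Ngfr, the nerve growth factor receptor. At or above the median of all genes per kb were 6 of the 10 death and survival genes, 10 of the 16 NF-kB genes, 5 of the 7 ubiquitin editing genes and 0 of these 6. The death and survival gene Birc3, at 215 per kb, was itself that median. The medians of these 3 lists of signalling proteins inside the cell were above those of the ligands (25.4) and the receptors (63.1) on the same scale.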

How the data were processed

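Poly(A) libraries of RPE/choroid from 3 young and 3 aged mice were processed by the authors, who trimmed read pairs, used STAR with the GRCm38 transcripts of Ensembl (release 82), quantified transcripts with Sailfish, scaled the counts to library totals and compared the ages with DESeq2. The deposited table has 1 line per gene. The mean normalised count is a signal that the authors averaged over the 6 libraries, and it was the only value used. The other 5 columns hold the authors' comparison of the ages (a fold change with its error, a statistic, and p-values before and after adjustment) and were not used here. The planned test of age needs values per library, which the table does not give, so no comparison of age was made. The steps below describe libraries after the authors' scaling to totals, so how deeply each was sequenced before it is unknown and no interval for counting error is given.

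Genes were chosen by symbol with a minimum mean of 10. Named with values were the 3 highest and 3 lowest of each role by mean normalised count, both genes of each ligand and receptor combination, the genes next to the minimum, the highest and lowest of each pathway list, and the genes below the minimum. Other genes named were chosen after their values were seen, as were the clusters, the promoter features and the stretches shown. The members and lists were chosen with earlier results of these data known.

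Levels per kb used the longest transcript of GENCODE M21 (GRCm38), which gave a length for 88.8% of the genes with a mean of at least 10 and for all 59 genes described. Whole counts were rebuilt for means under 10 from the steps between values, which differed by 1.11-fold between the highest and the lowest library. A set of counts was accepted where its weighted sum met the deposited mean within 2e-09, which left 1 solution for 7 of 7 genes. On simulated data, 100% of 60 genes were recovered. These simulated counts were all even and their means were built from the same steps, so odd counts and errors in the steps were not tested. Words of 50 bases were counted as a gene's own where no other annotated gene held them. The CpG ratio is the number of CG pairs times the window length, divided by the product of the C and G counts, and the highest ratio over the windows of a gene was used. Computations used Python 3.11.15 with numpy 2.4.6 and pandas 2.3.3, and figures used matplotlib 3.10.9. Alternatives tried were other minimums, other lengths and another set of genes to rank against.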

Additional observations from a re-analysis of the deposited data

How the results depend on the processing

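No test was made, so what follows concerns levels only. With a minimum mean of 1, 5 or 50 in place of 10, or none, 58, 54, 38 and 59 genes were listed in place of 52. The median of the ligands, 37.8 as a mean normalised count, became 26.0 with a minimum of 1, 288 with 50 and 25.4 with none. The median of the receptors, 196, became 177, 269 and 177, and the median of the TNF-induced proteins, 1149.8, became 1897 with a minimum of 50. The ratio of the median of the receptors to that of the ligands, 2.48 per kb, was 4.77 with the median transcript length, 3.44 with the coding length and 5.19 with no division by length. Each of these 3 settings moved the rank of a gene among the 52 by a median of 3 places and by at most 12, and left 6, 8 and 6 of the 10 highest genes per kb in place. Ranked among all genes above 0, the percentiles of the mean normalised counts rose by 3.12 to 26.8 points. The coding length was that of GENCODE, in place of the RefSeq protein length that had been planned, and was chosen after seeing the data. No paired analysis was possible because single mice have no values in the deposited file. Age was therefore compared in no setting, so for that comparison another count model, other size factors, no filter, other pseudocounts and leaving out each replicate were not run. The spread between libraries can be seen for the 7 genes with a mean below 10 and not for the 52 others.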
